A study of Homo sapiens with 12 samples.

Results

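Panobinostat was added to JQ1 in SK-N-BE(2) cells, a human neuroblastoma line with MYCN amplification, and its change was measured against JQ1 alone. The comparison sets the 3 arrays of the combination (1 µM JQ1 with 10 nM panobinostat for 6 h) against the 3 arrays of 1 µM JQ1 alone for 6 h, which are 6 of the 12 arrays of the study. The comparison was chosen by its labels, and all 14884 genes that could be named were kept, each represented by the transcript cluster (a set of probes for 1 transcribed region) with the highest mean over all arrays. The other 6 arrays are 3 with 10 nM panobinostat alone and 3 with vehicle, both also at 6 h, and they served to measure panobinostat's change in the absence of JQ1. All 4 groups were the same line in DMEM with 10% FCS, and nothing in the labels shows that the 3 samples of a group came from separate cultures. The p-values therefore measure how far these samples scatter, and that scatter may be technical.

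Panobinostat inhibits histone deacetylases (HDACs), the enzymes that remove acetyl groups from histones and other proteins. JQ1 occupies the acetyl-lysine pocket of the BET bromodomain proteins, which recruit the elongation kinase P-TEFb to acetylated chromatin. In adrenergic neuroblastoma cells, a small circle of transcription factors that includes PHOX2, HAND, GATA, TBX and ISL1 proteins keeps its own genes active through very large enhancers, and both classes of compound are known to affect genes of that kind. The comparison therefore asks what HDAC inhibition adds to cells whose BET proteins are already blocked.

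Values are log2 array signals, and a change is the combination mean minus the JQ1 mean on that scale, given with limma's SE and based on n = 3 arrays in each group. A gene was called when limma's p lay under 0.05 after Benjamini-Hochberg adjustment over all 14884 genes. By that rule 3816 genes were called (25.6%), 1744 of them higher in the combination (11.7%) and 2072 lower (13.9%), and the median change over all genes was 0.0056. The 6 arrays of the 2 groups had no overlap for 6208 genes (41.7%), with the combination above JQ1 for 20.1% and below it for 21.6%. Most changes were small: 77 genes were called and at least 2-fold higher (0.517%), and 119 were called and at least 2-fold lower (0.8%). The first combination array and the first JQ1 array deviated from their groups in opposite directions over the genes (r = -0.509). Without those 2 arrays 2568 genes were called, 1358 higher and 1210 lower, and counts of lower genes below are given without them wherever they shrink by more than 1.5 times. The split also moved with the scaling, to 1222 higher and 2079 lower with each array centred on its median and 1058 and 1570 centred on the miRNA genes. Where leaving out 1 array moved a list's count by more than 1.5 times, that count is given too, with the arrays of each group numbered 1 to 3. List counts are to be read beside the 11.7% higher and 13.9% lower of all genes, and beside signal level. In the brightest of 4 equal bins of protein-coding genes by mean signal 17.7% were called higher and 27.5% lower. In the dimmest bin the shares were 6.81% and 1.81%. The part of signal level in the list counts was not tested.

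Among protein-coding genes the largest rises were in REEP6, EFCAB12 and DHRS2. REEP6 (cluster 16856604), the gene of a protein that curves membranes of the endoplasmic reticulum, measured 10.43, 10.79 and 10.66 in the combination arrays, against 8.47, 8.12 and 8.46 in the JQ1 arrays. The change was 2.27 ± 0.15, a 4.83-fold rise, with an adjusted p of 1.94e-06. EFCAB12 (cluster 16958974), a gene for an EF-hand protein, read 7.34, 7.81 and 7.92 in the combination arrays, against 6.05, 5.27 and 5.15 in the JQ1 arrays, a change of 2.21 ± 0.23 with an adjusted p of 4.52e-05. In DHRS2 (cluster 16782385), a short-chain dehydrogenase gene long known to respond to HDAC inhibitors, the arrays read 7.98, 8.85 and 8.99 in the combination arrays, against 6.72, 6.36 and 6.31 in the JQ1 arrays. The groups of all 3 genes stood apart, which was a condition for choosing the largest changes. The first combination array of DHRS2 lay well under the others, and the DHRS2 change of 2.15 ± 0.25 had an adjusted p of 8.52e-05.

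The promoters of these genes are shown because they head the rises, so that they can be set beside those of the genes that fell most. Each covers 250 bases before and 50 after the annotated start in RefSeq's GRCh38.p14 table, 5′ to 3′ on the gene's strand, and capitals mark 3 motifs searched on both strands: the GC box GGGCGG, the CCAAT box CCAAT and the TATA box TATAAA.
REEP6 (chr19:1490931-1491230, plus strand): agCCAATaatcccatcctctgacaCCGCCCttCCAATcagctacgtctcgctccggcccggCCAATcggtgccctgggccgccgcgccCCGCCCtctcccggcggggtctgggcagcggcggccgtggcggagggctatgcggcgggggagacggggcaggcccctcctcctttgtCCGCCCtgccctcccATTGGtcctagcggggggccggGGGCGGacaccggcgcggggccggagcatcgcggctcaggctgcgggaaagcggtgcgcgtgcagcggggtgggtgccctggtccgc
EFCAB12 (chr3:129428587-129428886, minus strand): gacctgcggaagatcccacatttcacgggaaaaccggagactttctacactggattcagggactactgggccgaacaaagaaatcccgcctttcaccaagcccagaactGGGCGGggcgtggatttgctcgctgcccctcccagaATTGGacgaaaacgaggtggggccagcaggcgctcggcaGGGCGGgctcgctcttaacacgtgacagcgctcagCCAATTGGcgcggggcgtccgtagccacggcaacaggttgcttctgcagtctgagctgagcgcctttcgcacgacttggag
DHRS2 (chr14:23629865-23630164, plus strand): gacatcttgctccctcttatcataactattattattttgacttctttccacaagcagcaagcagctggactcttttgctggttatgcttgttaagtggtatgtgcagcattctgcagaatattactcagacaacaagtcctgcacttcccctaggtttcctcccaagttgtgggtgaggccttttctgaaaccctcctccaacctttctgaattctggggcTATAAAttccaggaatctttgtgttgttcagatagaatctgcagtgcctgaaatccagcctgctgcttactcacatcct
The REEP6 window holds 4 GC boxes and 4 CCAAT boxes with 35 CpG dinucleotides, and the EFCAB12 window holds 2 and 3 with 24. The DHRS2 window has 0 GC boxes, 1 TATA box and 0 CpG dinucleotides, so the 3 genes with the largest rises have promoter windows of different kinds.

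Signalling and surface proteins followed. CCDC110, a coiled-coil protein of the cancer-testis class, read 8.32, 8.26 and 8.13 in the combination arrays, against 6.17, 6.10 and 6.10 in the JQ1 arrays, and TEC, a non-receptor tyrosine kinase, read 7.74, 8.20 and 8.15 in the combination arrays, against 6.12, 6.27 and 5.55 in the JQ1 arrays. Their changes were 2.11 ± 0.10 and 2.05 ± 0.22, with adjusted p-values of 2.09e-07 and 4.94e-05. Groups without overlap were a condition for choosing them. STC1, the secreted glycoprotein stanniocalcin 1, rose 3.9-fold (1.96 ± 0.10, adjusted p = 2.56e-07). The gene of the vesicle protein synaptogyrin 2, SYNGR2, rose 3.24-fold (1.70 ± 0.08, adjusted p = 2.09e-07). EXPH5, an effector of RAB27, changed by 1.69 ± 0.17 (adjusted p = 3.98e-05) and the hydroxylysine kinase gene HYKK by 1.64 ± 0.15 (adjusted p = 2.03e-05).

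Among the largest rises were also a pair of adjacent ephrin genes. EFNA3 and EFNA4 encode ligands of the EphA receptors, which guide axons by contact repulsion. EFNA3 measured 8.89, 9.08 and 9.08 in the combination arrays, against 7.17, 7.23 and 6.94 in the JQ1 arrays, and EFNA4 measured 9.15, 8.80 and 8.90 in the combination arrays, against 7.20, 7.11 and 7.46 in the JQ1 arrays. They rose 3.74-fold and 3.24-fold (1.90 ± 0.08 and 1.69 ± 0.17), with adjusted p-values of 1.24e-07 and 2.89e-05. The next measured gene after EFNA3 in RefSeq's gene order, EFNA1, changed by 0.24 ± 0.11 and was not called (adjusted p = 0.136). ULBP1, a stress-induced ligand of the NKG2D receptor of natural killer cells, read 7.25, 7.27 and 7.59 in the combination arrays, against 5.83, 5.53 and 5.89 in the JQ1 arrays, a change of 1.62 ± 0.21 with an adjusted p of 2.15e-04, and its measured neighbour ULBP2 changed by 1.29 ± 0.12 (adjusted p = 1.87e-05). EFNA1 and ULBP2 were looked up as neighbours after the values were seen. The 24 protein-coding and 6 other genes taken as the largest called changes were chosen from genes with no overlap between the groups. They also had at least 7.238, the level of the median gene, in the brighter of the groups. Of their 60 measured neighbours in that order 15 were called the same way, 7 the opposite way and 38 were not called, and 25.6% of all genes were called in either direction. EFNA3 and EFNA4, both chosen as large rises, count there as each other's neighbour. Some other pairs may share transcripts, such as HAND2-AS1 and HAND2. The counts are therefore not independent of the choice, and whether neighbours move together was not tested.

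The largest fall was in TFAP2B (cluster 17009545), an AP-2 transcription factor gene of the sympathetic lineage, which read 7.55, 7.67 and 7.62 in the combination arrays, against 9.83, 9.60 and 9.63 in the JQ1 arrays. The change of -2.07 ± 0.09 was a 4.2-fold fall (adjusted p = 1.24e-07). CD200 (cluster 16943944), a surface glycoprotein that restrains myeloid cells through its receptor, read 7.17, 7.30 and 6.90 in the combination arrays, against 8.98, 9.13 and 9.12 in the JQ1 arrays. FAXC (cluster 17021901) read 7.01, 7.12 and 7.08 in the combination arrays, against 8.98, 8.82 and 8.89 in the JQ1 arrays. Neither overlapped between the groups, which their choice required. The changes of CD200 and FAXC were -1.95 ± 0.10 (adjusted p = 3.49e-07) and -1.83 ± 0.08 (adjusted p = 1.24e-07).

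The promoters of these 3 genes, printed for comparison with those of the rises and marked in the same way, are as follows; for FAXC the most upstream of the 3 entries in the table is shown.
TFAP2B (chr6:50818621-50818920, plus strand): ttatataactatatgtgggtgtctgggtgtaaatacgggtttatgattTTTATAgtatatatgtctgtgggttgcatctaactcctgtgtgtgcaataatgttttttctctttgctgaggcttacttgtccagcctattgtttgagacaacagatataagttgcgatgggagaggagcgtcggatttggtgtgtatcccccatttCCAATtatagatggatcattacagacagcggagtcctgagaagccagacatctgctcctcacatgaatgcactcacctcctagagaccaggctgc
CD200 (chr3:112332906-112333205, plus strand): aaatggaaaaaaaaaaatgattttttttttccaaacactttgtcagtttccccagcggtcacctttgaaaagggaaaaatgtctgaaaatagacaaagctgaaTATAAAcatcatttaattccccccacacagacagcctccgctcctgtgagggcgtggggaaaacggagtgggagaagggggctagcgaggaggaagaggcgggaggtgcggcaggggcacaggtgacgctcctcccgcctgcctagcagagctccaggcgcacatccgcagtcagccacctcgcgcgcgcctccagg
FAXC (chr6:99350007-99350306, minus strand): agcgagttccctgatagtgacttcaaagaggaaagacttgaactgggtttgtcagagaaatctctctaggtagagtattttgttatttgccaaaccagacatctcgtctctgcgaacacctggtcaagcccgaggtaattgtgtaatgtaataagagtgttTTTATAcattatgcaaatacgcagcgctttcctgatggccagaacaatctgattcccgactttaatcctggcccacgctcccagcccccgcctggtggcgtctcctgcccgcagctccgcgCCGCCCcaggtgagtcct
Each of the 3 windows holds 1 match to the TATA box, as does that of DHRS2, but strand and place differ. In TFAP2B and FAXC the match is TTTATA, on the opposite strand. The match of DHRS2 lies nearer to the start than those of the 3 genes that fell. Together the windows of those 3 genes hold fewer GC and CCAAT boxes than the REEP6 window alone. A match of letters is a description of the window and not evidence of a bound factor.

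Other large falls lay in genes of cell death, axon guidance and protein turnover. BCL2 (cluster 16855673), the founding anti-apoptotic protein gene of its family, read 7.43, 7.79 and 7.74 in the combination arrays, against 9.53, 9.45 and 9.45 in the JQ1 arrays, a change of -1.82 ± 0.09 with an adjusted p of 2.88e-07. UNC5C (cluster 16978054), a repulsive netrin receptor, read 8.79, 8.94 and 8.82 in the combination arrays, against 10.61, 10.68 and 10.61 in the JQ1 arrays, a change of -1.78 ± 0.07 (adjusted p = 8.05e-08). The SCF ubiquitin ligase scaffold CUL1 (cluster 17053019) read 8.64, 8.78 and 8.64 in the combination arrays, against 10.46, 10.55 and 10.35 in the JQ1 arrays, a change of -1.77 ± 0.07 (adjusted p = 1.24e-07). In each of these genes the highest combination array lay under the lowest JQ1 array, which the choice of the largest falls required. The WNT coactivator PYGO1, the zinc finger factor PATZ1, the RNA-binding protein IGF2BP3 and the microtubule-affinity kinase MARK1 changed by -1.68 ± 0.17, -1.65 ± 0.09, -1.54 ± 0.10 and -1.54 ± 0.09, with adjusted p-values between 6.94e-07 and 3.42e-05.

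**Figure D1:**
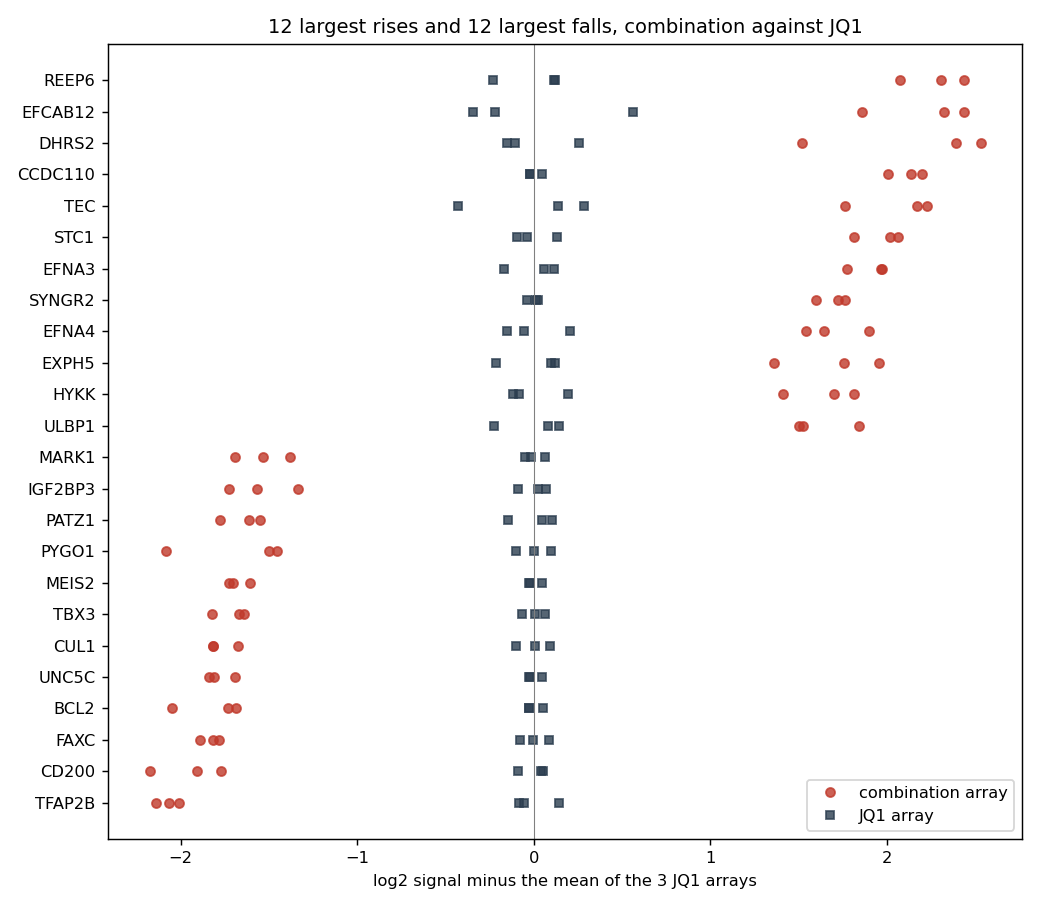
Log2 signal of each array minus the mean of the 3 JQ1 arrays (horizontal axis) for the 12 protein-coding genes with the largest rises and the 12 with the largest falls; red circles are the 3 combination arrays and dark squares the 3 JQ1 arrays. The groups do not overlap in any of these genes, which the selection required; DHRS2 has the widest spread among its combination arrays, between 7.98 and 8.99 in log2 signal.

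Most of the adrenergic transcription factors fell. Of the 26 measured members of the list, 21 were called lower and 0 higher, against 13.9% and 11.7% of all genes, and the median change was -0.71. At an unadjusted limma p under 0.05 the counts were 22 lower and 0 higher. GATA3 (cluster 16702351), a zinc finger factor of sympathetic neurons, read 10.54, 10.56 and 10.52 in the combination arrays, against 11.99, 12.02 and 12.13 in the JQ1 arrays, a change of -1.50 ± 0.07 (adjusted p = 1.24e-07). TBX3 (cluster 16770685), a T-box repressor, read 9.44, 9.29 and 9.47 in the combination arrays, against 11.17, 11.04 and 11.12 in the JQ1 arrays, a change of -1.71 ± 0.07 (adjusted p = 1.24e-07). The homeodomain factor MEIS2 (cluster 16807139) read 7.93, 7.95 and 8.05 in the combination arrays, against 9.70, 9.63 and 9.62 in the JQ1 arrays, and the bHLH factor HAND2 (cluster 16981542) read 10.59, 10.52 and 10.61 in the combination arrays, against 11.89, 11.74 and 11.79 in the JQ1 arrays. Their changes were -1.68 ± 0.06 and -1.24 ± 0.07, with adjusted p-values of 8.05e-08 and 1.02e-06. A second, dimmer MEIS2 cluster changed by -1.27 ± 0.13. Changes of the 21 called members ran from -2.07 in TFAP2B to -0.31 in KLF7.

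6 of these factors fell at least 2-fold: TFAP2B, TBX3, MEIS2, GATA3, HAND2 and GATA2, the last with a change of -1.01 ± 0.08 (adjusted p = 4.83e-06). PHOX2A, a homeodomain factor that specifies noradrenergic neurons, changed by -0.88 ± 0.07 (adjusted p = 4.92e-06), and the LIM homeodomain factor ISL1 by -0.59 ± 0.06 (adjusted p = 3.04e-05). The zinc finger factor INSM1 changed by -0.79 ± 0.09 (adjusted p = 7.28e-05). Members that were not called were SOX11 (-0.22 ± 0.10), LMO1 (-0.31 ± 0.13), CUX2 (-0.21 ± 0.13), LMO3 (0.02 ± 0.11) and KLF13 (0.10 ± 0.09), with adjusted p-values from 0.0925 to 0.935. GATA2, PHOX2A, ISL1, INSM1, KLF7 and the uncalled members other than SOX11 are named here after their values were seen. Without the first array of each group 17 of the 26 were called lower, with a median of -0.69. The gene of HAND2's antisense partner, HAND2-AS1, read 9.81, 9.85 and 9.88 in the combination arrays, against 11.04, 11.10 and 11.03 in the JQ1 arrays, a change of -1.21 ± 0.06 (adjusted p = 2.88e-07); the sources used here do not say whether the preparation kept strands apart, so HAND2 and HAND2-AS1 signals may share transcripts.

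**Figure D2:**
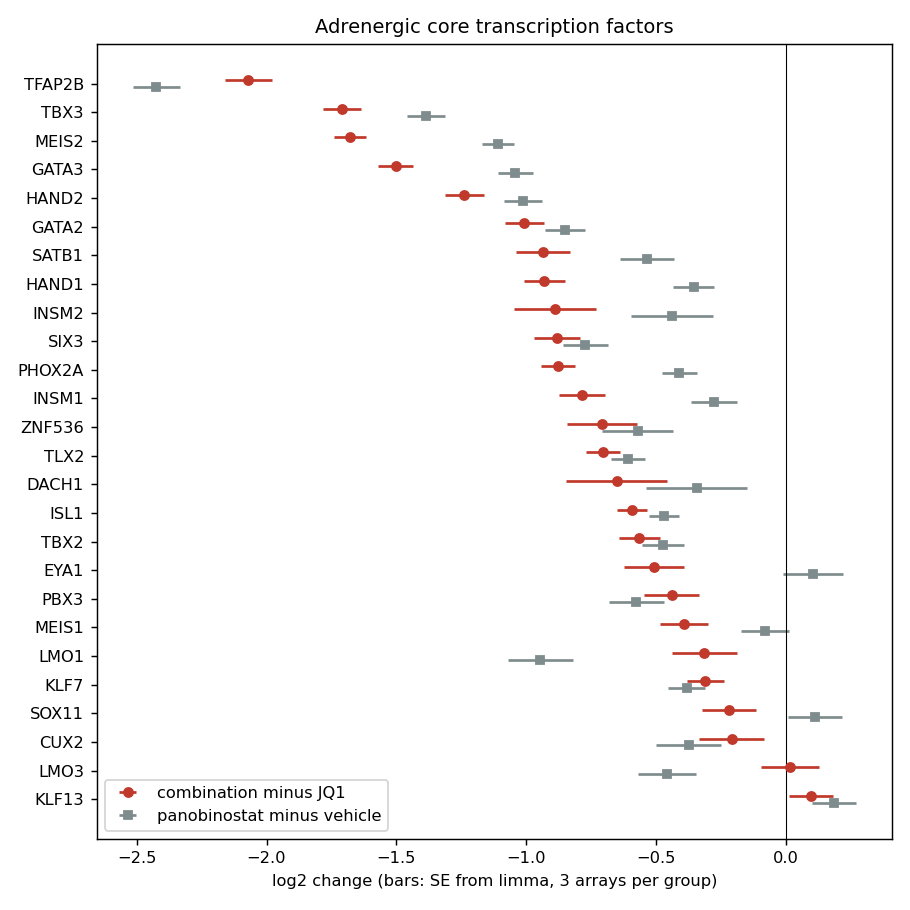
Log2 change of the 26 measured adrenergic transcription factor genes (horizontal axis) for the combination minus JQ1 (red circles) and for panobinostat minus vehicle (grey squares), with bars of 1 SE from limma (3 arrays per group). Most points of both comparisons lie left of 0, with 21 genes called lower in the combination against JQ1 and 20 called lower with panobinostat against vehicle.

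The arrays carried strong neuroblastoma signals, with 11 measured markers between percentiles 73.2 and 99.9 of all genes by mean signal. 4 of them are adrenergic factors. Of the remaining 7, 3 were called lower, and their summed log2 level was 71.88 to 72.41 in the combination arrays, against 72.92 to 73.51 in the JQ1 arrays. In bulk RNA, fewer cells of a type and less RNA per cell cannot be told apart. The fibroblast list had LUM, which encodes the matrix proteoglycan lumican, at percentile 98.9, while DCN of the same list lay at 25.1. The 3 measured members of that list, with THY1, changed by -0.15 to -0.07, with adjusted p-values from 0.0986 to 0.656. Summed log2 levels of the endothelial, leukocyte and Schwann cell lists were 25.34 to 25.894, 19.699 to 20.09 and 19.528 to 19.786 in the combination arrays, against 24.375 to 24.648, 19.102 to 19.438 and 19.064 to 19.245 in the JQ1 arrays. Of the measured members 1 of 4, 1 of 3 and 1 of 3 were called higher, against 11.7% of all genes, and 0 of 5 epithelial markers were. Several of these markers were dim, such as LYZ at percentile 11.6, PECAM1 at 14.7 and ERBB3 at 23.4, while CD68 lay at 67.3 and SOX10 at 53.8. The part of RNA from such cells in the results was not tested.

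Genes of the mesenchymal neuroblastoma state, the alternative identity of these tumours, went both ways, with 5 of 25 called higher and 7 lower. The shares over all genes were 11.7% and 13.9%. SOX9, a neural crest factor, rose (0.73 ± 0.10, adjusted p = 2.15e-04), whereas FOSL2, TWIST1 and SNAI2, which are transcription factors of the same state, fell by 0.86, 0.78 and 0.66 on the log2 scale (adjusted p = 7.43e-04, 0.00327 and 5.82e-05). Without the first array of each group 3 were called higher and 4 lower, and TWIST1 was not called; 3 were higher without JQ1 array 3. The brightest VIM cluster did not pass (-0.05 ± 0.06, adjusted p = 0.626), while a dimmer cluster of that intermediate filament gene changed by -0.44 ± 0.08 (adjusted p = 0.0027). Of 13 catecholamine and chromaffin granule genes, 2 were called higher and 5 lower, 2 of them lower without those arrays. In that list 3 were lower without JQ1 array 1, and 1 was higher without combination array 1 or JQ1 array 2. GCH1, which makes the cofactor of tyrosine hydroxylase, rose by 0.59 ± 0.09 (adjusted p = 6.57e-04), while the granule protein SCG2 changed by -0.55 ± 0.08 (adjusted p = 5.55e-04).

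Among the genes of panobinostat's own targets, HDAC1 and HDAC3, catalytic subunits of corepressor complexes, rose by 0.32 ± 0.07 and 0.66 ± 0.11 (adjusted p = 0.00434 and 0.00114), although HDAC1 was not called with arrays centred on the miRNA genes. HDAC2 changed by -0.10 ± 0.07 (adjusted p = 0.346), and the class IIa gene HDAC9 fell with a change of -0.90 ± 0.07 (adjusted p = 5.07e-06). Of the 18 HDAC and sirtuin genes, 4 were called higher and 4 lower, against 11.7% and 13.9% of all genes. Without the first array of each group 2 were lower, and 2 were lower without JQ1 array 1.

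Among 33 acetyltransferase and corepressor genes 6 were called higher and 13 lower (8 lower without the first array of each group). The shares over all genes were 11.7% and 13.9%. SIN3A, the scaffold of an HDAC complex, read 10.98, 11.14 and 11.12 in the combination arrays, against 10.16, 10.08 and 10.01 in the JQ1 arrays, a 2-fold rise (1.00 ± 0.08, adjusted p = 5.07e-06). The coactivator gene NCOA2 read 8.37, 8.22 and 8.40 in the combination arrays, against 9.41, 9.40 and 9.51 in the JQ1 arrays, a change of -1.11 ± 0.08 (adjusted p = 3.30e-06). The groups of both genes stood apart, as did those of 41.7% of all genes. Their choice as called members with the largest changes favoured that. RCOR3 and TBL1XR1, components of corepressor complexes, changed by -0.92 ± 0.09 and -0.83 ± 0.08 (adjusted p = 2.92e-05 and 2.19e-05).

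In the BET and P-TEFb list 4 of 18 genes were called higher and 5 lower, against 11.7% and 13.9% of all genes. Without the first array of each group the counts were 2 and 3. Of single arrays left out, 2 were higher without combination array 1 or 3 or JQ1 array 1, 2 or 3. MEPCE, the capping enzyme that stabilises the 7SK RNA of the P-TEFb reservoir, read 8.98, 9.01 and 8.97 in the combination arrays, against 10.23, 10.32 and 10.43 in the JQ1 arrays. That was a change of -1.34 ± 0.09 (adjusted p = 1.67e-06). MEPCE's groups did not overlap, as in 41.7% of all genes, and its choice as a called member with a large change favoured that. CCNT2, a cyclin of P-TEFb, and BRD3, a BET protein, changed by -0.74 ± 0.10 and -0.35 ± 0.06 (adjusted p = 2.83e-04 and 0.00108). HEXIM1, the protein inhibitor of P-TEFb, read 10.02, 9.97 and 10.03 in the combination arrays, against 9.82, 9.90 and 9.98 in the JQ1 arrays, values that overlap, and its change of 0.11 ± 0.06 did not pass the test (adjusted p = 0.25). BRD2 also did not pass (-0.26 ± 0.10, adjusted p = 0.0652).

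Enzymes that write or erase methyl marks were more often lower than higher, with 20 of 39 called lower, 4 called higher and a median of -0.21. The shares over all genes were 13.9% and 11.7%. Without the first array of each group 13 were lower, and 2 were higher without combination array 3 or JQ1 array 2. TET2, which oxidises methylated cytosine, read 7.58, 7.50 and 7.67 in the combination arrays, against 8.98, 9.03 and 8.90 in the JQ1 arrays, a change of -1.39 ± 0.09 (adjusted p = 1.42e-06). The histone methyltransferase genes SETD7 and NSD1 changed by -0.94 ± 0.12 and -0.81 ± 0.09 (adjusted p = 1.68e-04 and 6.09e-05). KDM5B, a demethylase of lysine 4 of histone H3, was a gene of the list that rose (0.76 ± 0.07, adjusted p = 2.87e-05). The maintenance methyltransferase gene DNMT1 did not pass (-0.10 ± 0.07, adjusted p = 0.34).

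Genes that other work has reported to respond to HDAC inhibitors were called higher more often than lower. Of 24 measured members 10 were called higher and 1 lower, against 11.7% and 13.9% of all genes, with a median of 0.26. In that list 6 were higher without JQ1 array 2, and 8 without the first array of each group. Beside DHRS2, the heat shock protein HSPA2 read 9.95, 10.16 and 10.36 in the combination arrays, against 9.23, 9.23 and 9.25 in the JQ1 arrays, a change of 0.92 ± 0.13 (adjusted p = 3.34e-04), and the metallothionein MT2A, a metal-binding protein, read 9.54, 9.50 and 9.54 in the combination arrays, against 8.88, 9.13 and 8.93 in the JQ1 arrays, a change of 0.54 ± 0.09 (adjusted p = 9.00e-04). Both had separate groups, as had 41.7% of all genes, and their choice as called members with large changes favoured that. The member that fell was KLF6 (-0.35 ± 0.08, adjusted p = 0.00628), named after its values were seen and not called without the first array of each group. The phosphatase gene DUSP1 did not pass (-0.16 ± 0.08, adjusted p = 0.187).

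The wider heat shock and metallothionein list had 9 of 24 genes called higher and 1 lower, against 11.7% and 13.9% of all genes. The lower gene was MT1B (-0.30 ± 0.09, adjusted p = 0.0285), named after its values were seen. Without the first array of each group 7 were higher and 0 lower, and of single arrays left out, 0 were lower without combination array 1 or 2 or JQ1 array 1 or 3 and 2 were lower without vehicle array 2. MT1F changed by 0.91 ± 0.20 (adjusted p = 0.00568), although metallothionein genes are near-identical copies whose probes may share signal. HSPA1A, the inducible HSP70, changed by 0.58 ± 0.07 (adjusted p = 9.86e-05), and its 5 clusters gave changes from 0.57 to 0.69. Several of those clusters had the same level, change and SE, so they are not 5 separate readings. The near-identical paralog HSPA1B cannot be separated from HSPA1A here. The mitochondrial chaperone HSPA9 did not pass (-0.06 ± 0.06, adjusted p = 0.508). Without those arrays the list's median was 0.04, against 0.13 with all arrays.

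Apoptosis genes moved most at BCL2. Over all genes 13.9% were called lower and 11.7% higher. Of 10 measured pro-survival genes 4 were called lower and 0 higher, with a median of -0.24 (5 and 0 by limma at an unadjusted p under 0.05), and 2 were lower without the first array of each group. CFLAR, which blocks caspase-8, changed by -0.56 ± 0.10 (adjusted p = 0.00114). BCL2L1, which encodes BCL-XL, changed by -0.50 ± 0.11 (adjusted p = 0.00488), and the inhibitor of apoptosis survivin, BIRC5, by -0.20 ± 0.07 (adjusted p = 0.0475). BCL2L1 was not called without those arrays, and BIRC5 was not called when any of 10 of the 12 arrays was left out singly. MCL1 did not pass (-0.14 ± 0.07, adjusted p = 0.145). On the pro-death side 2 of 14 genes were called higher and 1 lower, and 2 were lower without JQ1 array 3 or vehicle array 1. APAF1, the scaffold of the apoptosome, rose by 0.73 ± 0.11 (adjusted p = 4.01e-04) and the BH3-only gene BMF by 0.48 ± 0.10 (adjusted p = 0.00374). BID, another BH3-only gene, fell with a change of -0.43 ± 0.07 (adjusted p = 8.06e-04), and BCL2L11, which encodes BIM, did not pass (0.05 ± 0.13, adjusted p = 0.819).

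Cell cycle genes had more lower than higher calls. Of 22 G1 and S regulators 10 were called lower and 3 higher, with a median of -0.21. The shares were 13.9% and 11.7% over all genes, and 27.5% and 17.7% in the brightest bin of protein-coding genes. CCND1, the D-type cyclin that is very abundant in neuroblastoma, read 10.21, 10.38 and 10.26 in the combination arrays, against 11.44, 11.44 and 11.45 in the JQ1 arrays. Its change was -1.16 ± 0.08, a 2.24-fold fall (adjusted p = 1.96e-06). CCND1's groups stood apart, as did those of 41.7% of all genes, and its choice as a called member with a large change favoured that. E2F3 and E2F8, transcription factors of S phase, changed by -0.87 ± 0.09 and -0.72 ± 0.09 (adjusted p = 5.82e-05 and 1.09e-04), while cyclin E1, CCNE1, rose by 0.72 ± 0.10 (adjusted p = 3.42e-04). E2F1 did not pass (-0.22 ± 0.08, adjusted p = 0.0709).

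Of 21 DNA replication genes 12 were called lower and 2 higher, with 7 lower without the first array of each group. Shares over all genes were 13.9% and 11.7%, and in the brightest bin of protein-coding genes 27.5% and 17.7%. TYMS, which makes thymidylate, changed by -0.88 ± 0.06 (adjusted p = 2.61e-06) and the GINS helicase subunit GINS3 by -0.61 ± 0.06 (adjusted p = 5.26e-05). The 2 that rose were GINS4 (0.62 ± 0.11, adjusted p = 0.00186), another subunit of GINS, and the licensing factor CDC6 (0.48 ± 0.08, adjusted p = 7.57e-04). The helicase gene MCM3 did not pass (-0.12 ± 0.06, adjusted p = 0.186). Among 37 mitotic genes 16 were called lower and 3 higher, and 9 lower without those arrays. KIF15, a spindle kinesin, and the mitotic kinase PLK1 changed by -0.78 ± 0.07 and -0.67 ± 0.10 (adjusted p = 1.03e-05 and 3.90e-04), whereas TOP2A did not pass (0.04 ± 0.06, adjusted p = 0.635).

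Genes of RNA production and repair also had more falls than rises, of modest size. Of all genes 13.9% were called lower and 11.7% higher. In the brightest of 4 equal bins of protein-coding genes by mean signal the shares were 27.5% and 17.7%. The splicing, nucleolar and recombination lists were bright, with median JQ1 levels of 10.5, 10.35 and 9.37. The part of signal level in their counts was not tested. Of 48 splicing genes 21 were called lower and 0 higher, with a median of -0.15 (22 and 0 by limma at an unadjusted p under 0.05) and 11 lower without the first array of each group. SRSF4, a splicing factor of the SR family, changed by -0.90 ± 0.10 (adjusted p = 7.96e-05), and PTBP2, the neuronal polypyrimidine tract protein, by -0.63 ± 0.08 (adjusted p = 2.52e-04). Of 25 nucleolar genes 9 were lower and 1 higher, but 2 were lower without those arrays. In that list 5 were lower without combination array 2, and 0 were higher without combination array 2 or 3, JQ1 array 1, 2 or 3, panobinostat array 3 or vehicle array 2. NOB1, an endonuclease that matures 18S rRNA, changed by -0.60 ± 0.07 (adjusted p = 9.86e-05). Among 21 homologous recombination and Fanconi genes 6 were called lower and 0 higher (8 and 2 by limma at an unadjusted p under 0.05), and 3 and 1 without those arrays; 2 were higher without combination array 1. NBN, a subunit of the double-strand break sensor, changed by -0.72 ± 0.10 (adjusted p = 2.23e-04) and the exonuclease gene EXO1 did not pass (-0.18 ± 0.08, adjusted p = 0.132).

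**Figure D3:**
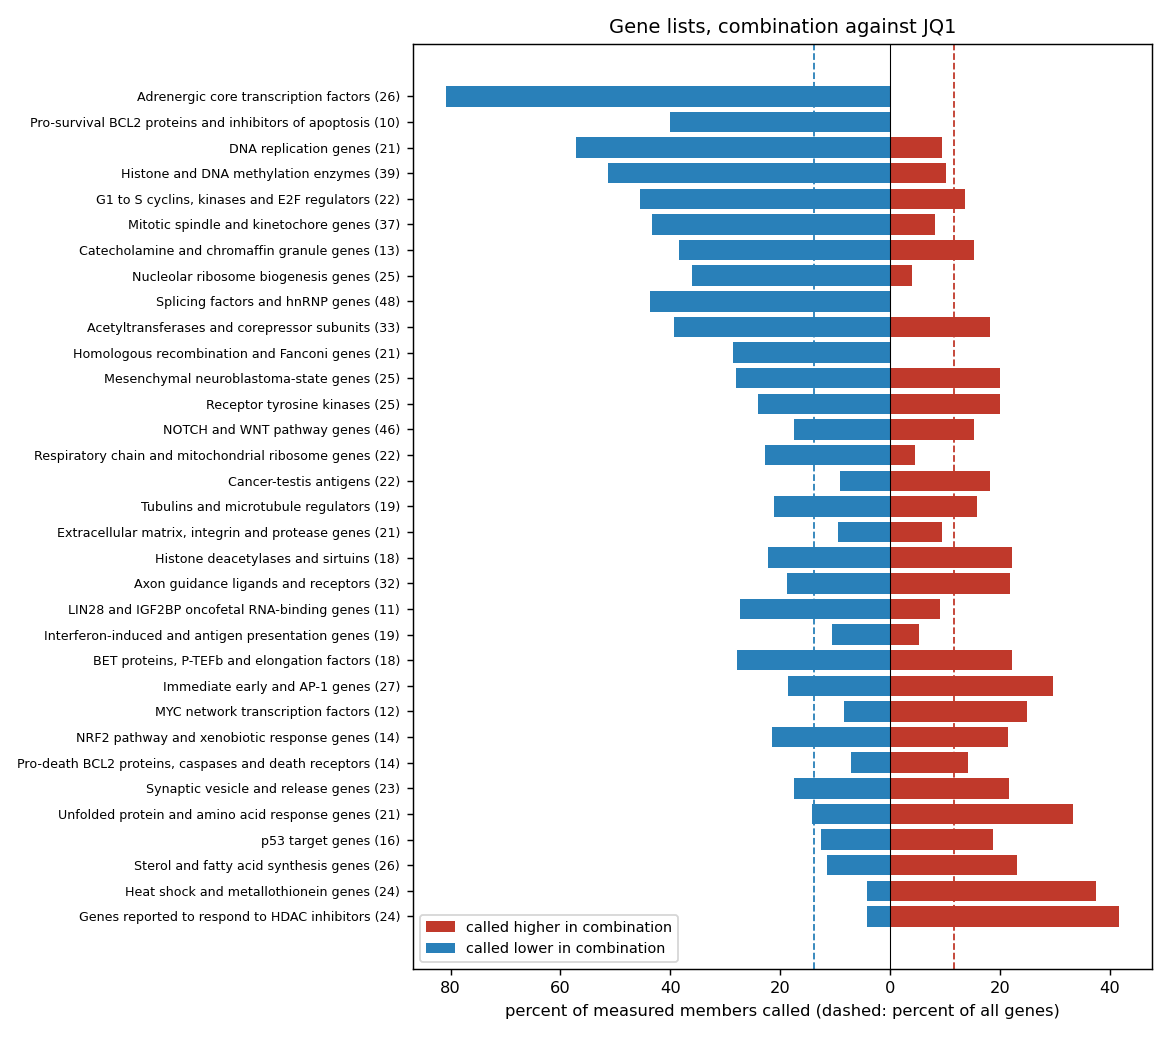
Percent of measured members called higher (red, right of 0) and lower (blue, left of 0) in the combination against JQ1 for each gene list with at least 5 measured members, ordered by median change with the number measured in brackets; dashed lines are the 11.7% and 13.9% of all genes. The adrenergic list has the largest share of lower calls with all arrays. The list of genes reported to respond to HDAC inhibitors has 10 of 24 called higher with all arrays, a count that fell to 6 without the second JQ1 array.

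Of the oncofetal RNA-binding genes 2 fell at least 2-fold, while the list's median change was 0.03. LIN28B, which blocks the maturation of let-7 miRNAs, read 6.83, 6.65 and 6.99 in the combination arrays, against 8.17, 8.10 and 8.15 in the JQ1 arrays, a change of -1.32 ± 0.10 (adjusted p = 3.44e-06), and IGF2BP3 read 6.50, 6.66 and 6.89 in the combination arrays, against 8.25, 8.14 and 8.30 in the JQ1 arrays. In neither did the groups overlap, which was a condition for naming IGF2BP3 among the largest falls. DGCR8, the RNA-binding partner of Drosha, changed by -0.83 ± 0.11 (adjusted p = 1.84e-04), whereas ARID3B rose (0.54 ± 0.12, adjusted p = 0.00537) and XPO5 did not pass (0.03 ± 0.07, adjusted p = 0.8). In all 3 of 11 measured members of that list were called lower and 1 higher, against 13.9% and 11.7% of all genes. In the MYC network 3 of 12 were called higher and 1 lower, the last being USF1 (-0.62 ± 0.07, adjusted p = 5.28e-05). The MAX-binding repressor MXD1 and MAX itself rose by 0.77 ± 0.11 and 0.51 ± 0.10 (adjusted p = 3.37e-04 and 0.00262). MYC did not pass (0.07 ± 0.13, adjusted p = 0.755), but its cluster was dim. Its means of 6.52 in the combination arrays and 6.45 in the JQ1 arrays lay under 6.754, the 40th percentile of mean signal. MYCN itself was not analysed here because the naming table used holds no cluster for it.

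Stress and metabolic genes were mixed. KEAP1, the adaptor that marks NRF2 for degradation, read 7.88, 8.03 and 8.37 in the combination arrays, against 9.65, 9.55 and 9.57 in the JQ1 arrays, a change of -1.50 ± 0.13 (adjusted p = 1.24e-05). The NRF2 gene NFE2L2 itself changed by -0.81 ± 0.11 (adjusted p = 2.23e-04). In that list 3 of 14 genes were called higher and 3 lower, against 11.7% and 13.9% of all genes. ZBTB2, a POZ zinc finger factor, read 7.98, 8.25 and 8.20 in the combination arrays, against 9.46, 9.38 and 9.21 in the JQ1 arrays, a change of -1.21 ± 0.11 (adjusted p = 1.55e-05). In the unfolded protein and amino acid response 7 of 21 were called higher and 3 lower, against the same 11.7% and 13.9%. There 4 were higher without combination array 2 or 3 or JQ1 array 2 or 3. SEL1L, a subunit of the machinery that clears misfolded proteins, rose by 0.70 ± 0.07 (adjusted p = 3.42e-05), and DDIT4, an inhibitor of mTORC1, by 0.65 ± 0.06 (adjusted p = 2.13e-05). The receptor gene VLDLR fell (-0.73 ± 0.07, adjusted p = 2.92e-05).

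Of 26 sterol and fatty acid genes 6 were called higher and 3 lower, against 11.7% and 13.9% of all genes. INSIG2, which holds the sterol sensor in the endoplasmic reticulum, and mevalonate kinase, MVK, rose by 0.71 ± 0.17 and 0.71 ± 0.06 (adjusted p = 0.00754 and 1.50e-05), whereas the fatty acid elongase ELOVL6 changed by -0.69 ± 0.07 (adjusted p = 5.02e-05). The p53 target list had 3 of 16 higher and 2 lower, with 1 higher without the first array of each group, and 1 was higher without combination array 3. CCNG1, a cyclin induced by p53, rose (0.46 ± 0.08, adjusted p = 0.00195), TP53I3, a quinone oxidoreductase, fell (-0.70 ± 0.07, adjusted p = 2.87e-05), and TP53INP1 did not pass (0.32 ± 0.12, adjusted p = 0.0782).

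Receptors, guidance cues and signalling genes also went in both directions. Of 32 axon guidance genes 7 were called higher and 6 lower, against 11.7% and 13.9% of all genes. The ends of the range were EFNA3 at 1.90 and UNC5C at -1.78. NRP2, a semaphorin coreceptor, changed by -0.78 ± 0.10 (adjusted p = 1.39e-04). Of 25 receptor tyrosine kinases 5 were higher and 6 lower, 3 of them higher without the first array of each group. MERTK, a receptor of the TAM family, read 8.51, 8.63 and 8.63 in the combination arrays, against 7.65, 7.42 and 7.65 in the JQ1 arrays, a 2.02-fold rise (1.02 ± 0.13, adjusted p = 1.89e-04), whereas EGFR changed by -0.68 ± 0.09 (adjusted p = 1.73e-04). KDR and FGFR4, receptors of VEGF and FGF ligands, rose by 0.74 ± 0.11 and 0.72 ± 0.12 (adjusted p = 3.67e-04 and 0.00106).

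In the NOTCH and WNT list 7 of 46 genes were called higher and 8 lower, against 11.7% and 13.9% of all genes. Without the first array of each group the counts were 4 and 6. The WNT antagonist DKK1 read 8.68, 8.89 and 9.11 in the combination arrays, against 10.29, 9.89 and 10.08 in the JQ1 arrays, a change of -1.19 ± 0.14 (adjusted p = 8.02e-05), while DKK3 rose by 0.80 ± 0.10 (adjusted p = 1.15e-04). Of 27 immediate early genes 8 were higher and 5 lower (2 lower without those arrays), and 3 were lower without combination array 1 or JQ1 array 2. DUSP4, a phosphatase that restrains ERK, changed by -0.97 ± 0.07 (adjusted p = 3.07e-06), and IER2 rose by 0.66 ± 0.08 (adjusted p = 1.37e-04). FOS changed by 0.90 ± 0.15 in its brightest cluster (adjusted p = 9.61e-04) and by 0.03 ± 0.13 in a dimmer one, which was not called, so its clusters disagree.

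Neuronal release and cytoskeleton genes were mixed as well. Of 23 synaptic vesicle genes 5 were called higher and 4 lower, against 11.7% and 13.9% of all genes. SYN1, which tethers vesicles to actin, rose by 0.69 ± 0.13 (adjusted p = 0.00167), and SYT4, a synaptotagmin, fell (-0.85 ± 0.17, adjusted p = 0.00368). Of 19 tubulin and microtubule genes 3 were higher and 4 lower (2 and 1 without the first array of each group), and 1 was lower without combination array 1 or JQ1 array 1 or 2 and 2 were lower without combination array 2 or 3, JQ1 array 3 or vehicle array 2. KIF21A, a kinesin of axons, read 9.84, 10.08 and 10.03 in the combination arrays, against 11.18, 11.21 and 11.11 in the JQ1 arrays, a change of -1.18 ± 0.08 (adjusted p = 2.06e-06), while its paralog KIF21B rose by 0.73 ± 0.12 (adjusted p = 0.00102). For both kinesins the groups did not overlap, as in 41.7% of all genes, and their choice as called members with large changes favoured that. The interferon, matrix, respiratory chain and cancer-testis lists had 1 of 19, 2 of 21, 1 of 22 and 4 of 22 genes called higher, and 2, 2, 5 and 2 called lower, of which 1, 2, 2 and 2 without those arrays. Of single arrays left out, 0 were higher without combination array 2 or 3 or JQ1 array 2 or 3 and 2 were higher without panobinostat array 2 or vehicle array 2 in the interferon list, and 0 were higher without combination array 3 or JQ1 array 2 and 1 was higher without combination array 2 or JQ1 array 1 or 3 in the matrix list. In the respiratory chain list 2 were lower without JQ1 array 1, 2 or 3 and 3 were lower without combination array 1 or 2, panobinostat array 3 or vehicle array 3, and 2 were higher without combination array 1 or vehicle array 1. VCAN, the matrix proteoglycan versican, changed by -0.89 ± 0.09 (adjusted p = 3.56e-05), and the mitochondrial ribosome subunit MRPS35 by -0.78 ± 0.10 (adjusted p = 1.67e-04).

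Of the non-coding genes, 7.37% of 1072 miRNA genes and 12.7% of 1398 lncRNA genes were called, against 25.6% of all genes. Their median JQ1 levels were 5.28 and 5.93, against 7.64 for protein-coding genes. The largest rise of all was in a non-coding gene, MIR7-3HG (cluster 16857248), the host transcript of a miR-7 gene, which read 9.89, 10.08 and 10.20 in the combination arrays, against 7.76, 7.71 and 7.72 in the JQ1 arrays. Its change was 2.33 ± 0.10 (adjusted p = 1.24e-07). The cluster of MIR7-3 within it, looked up after the values were seen, read 6.19, 6.18 and 6.48 in the combination arrays, against 5.45, 5.12 and 5.43 in the JQ1 arrays, a change of 0.95 ± 0.11 (adjusted p = 1.07e-04). MIR4525 (cluster 16850286) read 11.09, 10.63 and 11.11 in the combination arrays, against 8.90, 8.93 and 8.97 in the JQ1 arrays. That was a change of 2.01 ± 0.13 (adjusted p = 1.67e-06). For MIR7-3HG and MIR4525 groups without overlap were a condition of the choice.

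The mature miRNAs of those loci are printed to show which seeds the rising genes carry, 5′ to 3′ from RefSeq's GRCh38.p14 table with the seed, bases 2 to 8, in capitals.
hsa-miR-7-5p (chr19:4770700-4770723, plus strand): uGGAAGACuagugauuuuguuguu
hsa-miR-4525 (chr17:82668281-82668301, minus strand): gGGGGGAUgugcaugcugguu
The seeds differ, and the array values are signals of the transcript clusters named for these genes, not levels of the mature miRNAs. Of the remaining non-coding genes by the same rule, ARHGEF26-AS1 changed by 1.43 ± 0.15 (adjusted p = 3.91e-05), LINC00938 by -1.21 ± 0.12 (adjusted p = 3.25e-05) and BOLA3-DT by -1.17 ± 0.21 (adjusted p = 0.00136).

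With JQ1 present, most of panobinostat's called changes had the direction they had without JQ1. The 2 changes share no arrays, and over the 14884 genes they had a Pearson correlation of 0.754, given as a description since genes are not independent replicates. Panobinostat against vehicle called 4363 genes (29.3%), and 2764 were called in both, 2740 in the same direction and 24 in opposite directions. The same-direction genes are 71.8% of those called with JQ1 and 62.8% of those called without. REEP6 changed by 2.27 ± 0.15 with JQ1 and 2.60 ± 0.15 without, CCDC110 by 2.11 ± 0.10 and 2.12 ± 0.10, and TFAP2B by -2.07 ± 0.09 and -2.42 ± 0.09. In none of these 3 did the test of the difference pass (adjusted p = 0.561, 0.985 and 0.238).

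The difference itself, the change with JQ1 minus the change without it, was called for 113 genes (0.759%), 46 positive (0.309%) and 67 negative (0.45%). Of these, 49 had risen without JQ1, and with JQ1 20 had a smaller change of the same sign, 2 a larger one and 27 a value of the opposite sign, 16 of which were called with JQ1. Another 50 had fallen without JQ1, and with JQ1 30 had a smaller change of the same sign, 8 a larger one and 12 a value of the opposite sign, 5 of which were called with JQ1. The other 14 were not called without JQ1. The count depends on single arrays and on the scaling: without the first array of the combination and of JQ1 it was 0 by limma, with 1897 genes at an unadjusted p under 0.05, and leaving out 1 array gave between 28 without the second combination array and 86 without the first vehicle array. The first panobinostat and first vehicle arrays opposed each other more strongly than those of the combination and JQ1 (r = -0.693). Without those 2 arrays 3878 genes were called with panobinostat against vehicle, 2145 higher and 1733 lower, against 2161 and 2202 with all arrays, and the difference was called for 94 genes. Without the first array of all 4 groups it was called for 0 by limma, with 2025 at an unadjusted p under 0.05. Of the 12 genes described next, 0 were called without the first combination and JQ1 arrays, 0 without the first array of all 4 groups, 10 without the first panobinostat and vehicle arrays and 8 without the second combination array, and leaving out any other single array kept at least 10.

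AHR, the dioxin receptor gene, rose less with JQ1 than without. It read 10.88, 10.60 and 10.78 in the combination arrays, against 9.81, 9.79 and 9.88 in the JQ1 arrays, and 10.32, 10.37 and 10.51 in the panobinostat arrays, against 8.25, 8.42 and 8.41 in the vehicle arrays. Panobinostat thus raised it with JQ1 (0.92 ± 0.09, adjusted p = 2.13e-05) and without (2.04 ± 0.09, adjusted p = 1.67e-07), and the difference was -1.11 ± 0.12 (adjusted p = 0.00694). Its mean was 10.75 in the combination arrays against 10.40 in the panobinostat arrays, without overlap. In the JQ1 arrays the mean was 9.83, against 8.36 in the vehicle arrays. HSPA2 read 9.95, 10.16 and 10.36 in the combination arrays, against 9.23, 9.23 and 9.25 in the JQ1 arrays, and 10.21, 10.06 and 10.36 in the panobinostat arrays, against 8.34, 7.88 and 8.15 in the vehicle arrays, with a difference of -1.17 ± 0.18 (adjusted p = 0.0166). PAG1, an adaptor that recruits the kinase CSK, read 10.24, 10.21 and 10.43 in the combination arrays, against 10.33, 10.38 and 10.29 in the JQ1 arrays, and 9.54, 9.64 and 9.94 in the panobinostat arrays, against 8.59, 8.05 and 8.30 in the vehicle arrays. Its change was -0.04 ± 0.13 with JQ1 and 1.39 ± 0.13 without, and the difference of -1.43 ± 0.19 (adjusted p = 0.0107) was the most negative of the named genes.

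SESN3, a stress-responsive regulator of mTORC1, changed by 0.19 ± 0.08 with JQ1 and 1.34 ± 0.08 without (difference -1.15 ± 0.11, adjusted p = 0.00443). RGS16, which switches off G protein signals, changed by 0.47 ± 0.11 and 1.49 ± 0.11 (difference -1.02 ± 0.16, adjusted p = 0.0166). FLRT3, a membrane protein that binds UNC5 receptors, took opposite signs, -0.47 ± 0.14 with JQ1 (adjusted p = 0.0259) and 0.80 ± 0.14 without (adjusted p = 9.84e-04), with a difference of -1.27 ± 0.19 (adjusted p = 0.0164). Its change with JQ1 was not called without the first or the second combination array, or without the second or the third JQ1 array.

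On the positive side MAP2K6, the kinase that activates p38, read 9.37, 9.42 and 9.54 in the combination arrays, against 8.21, 8.13 and 8.29 in the JQ1 arrays, and 9.12, 9.30 and 9.35 in the panobinostat arrays, against 9.12, 9.01 and 9.04 in the vehicle arrays. It rose with JQ1 (1.24 ± 0.08, adjusted p = 1.88e-06), while the change without JQ1 was 0.20 ± 0.08 (adjusted p = 0.0912), and the difference was 1.04 ± 0.11 (adjusted p = 0.00694). POPDC2, NHSL2 and PRDM10 fell less with JQ1 than without: POPDC2, a cAMP-binding membrane protein gene, changed by -0.63 ± 0.09 and -1.60 ± 0.09, NHSL2 by -0.56 ± 0.09 and -1.56 ± 0.09, and the transcription factor gene PRDM10 by -0.52 ± 0.09 and -1.50 ± 0.09. Their differences were 0.97 ± 0.12, 1.00 ± 0.12 and 0.98 ± 0.13 (adjusted p = 0.00902, 0.00902 and 0.0107). RD3, a regulator of guanylate cyclase in photoreceptors, changed by -0.31 ± 0.12 with JQ1 and -1.39 ± 0.12 without (difference 1.08 ± 0.16, adjusted p = 0.0164), and its dimmer cluster changed by 0.14 with JQ1. TBX22, a T-box factor gene, changed by -0.06 ± 0.12 and -0.98 ± 0.12 (difference 0.92 ± 0.17, adjusted p = 0.0325).

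The adrenergic list had 20 members called lower without JQ1, with a median of -0.47, against 21 and -0.71 with JQ1. The difference passed the test for 3 members, all in the direction of a deeper fall with JQ1. They were MEIS2 (-0.57 ± 0.09, adjusted p = 0.0164), HAND1 (-0.58 ± 0.11, adjusted p = 0.0405) and PHOX2A (-0.47 ± 0.09, adjusted p = 0.048). HAND1 was named after its values were seen. Over all genes 0.45% had a called negative difference and 0.309% a positive one. Without the first combination and first JQ1 arrays together the difference was called for 0 genes. That holds for these 3 members and for UNC5C and MIR4525 below. UNC5C also fell further with JQ1 (difference -0.82 ± 0.09, adjusted p = 0.00764). For BCL2 the changes were -1.82 ± 0.09 with JQ1 and -1.19 ± 0.09 without, and the difference of -0.63 ± 0.13 did not pass (adjusted p = 0.0545). MIR4525 rose more with JQ1 than without (2.01 ± 0.13 and 1.03 ± 0.13, difference 0.98 ± 0.18, adjusted p = 0.0358). HEXIM1 changed by 0.11 ± 0.06 with JQ1 and 0.44 ± 0.06 without, and that difference did not pass (adjusted p = 0.128).

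**Figure D4:**
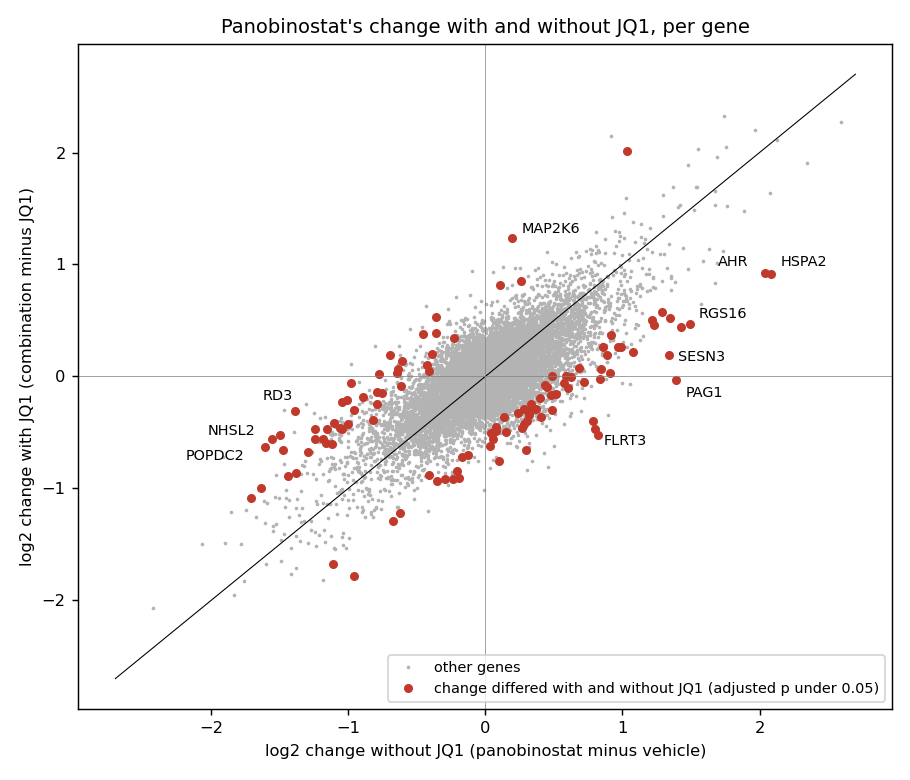
Log2 change with JQ1 (combination minus JQ1, vertical axis) against log2 change without JQ1 (panobinostat minus vehicle, horizontal axis) for the 14884 genes, with the line of equal change; red points are the 113 genes whose 2 changes differed at an adjusted p under 0.05. Most genes lie along the line, and AHR, HSPA2, PAG1 and SESN3 lie below it on the right, where the change without JQ1 is the larger.

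The genes called lower were brighter and longer than the rest. With protein-coding genes in 4 equal bins by mean signal, 1.81% of the dimmest bin and 27.5% of the brightest were called lower, against 6.81% and 17.7% called higher. Median gene length in RefSeq's table was 37.9 kb for genes called lower, 31.7 kb for those called higher and 26.7 kb for all protein-coding genes. The 110 protein-coding genes at least 2-fold lower had a median of 66.0 kb. Among genes with a promoter entry and a mean at or above the median gene the lengths were 40.8 kb for lower, 32.8 kb for higher and 31.4 kb for all such genes.

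**Figure D5:**
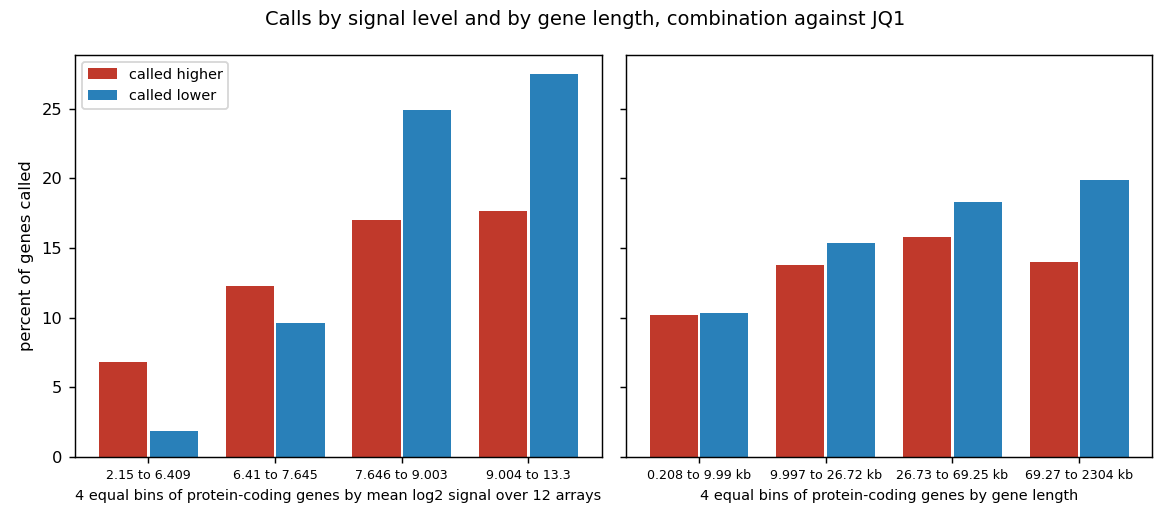
Percent of protein-coding genes called higher (red) and lower (blue) in the combination against JQ1 in 4 equal bins of mean log2 signal (left) and of gene length in kb (right). Calls become more frequent with signal, lower calls most of all, and the bin of the longest genes has 19.9% called lower against 10.3% in the shortest.

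Promoter windows of 9707 protein-coding genes were searched for 9 motifs, the 3 marked above among them. The GC box GGGCGG occurred, on either strand, in 76.8% of promoters of genes called higher, 69.1% of those called lower and 62.8% of all. The CCAAT box occurred in 42.8%, 32.1% and 36.3%, and the TATA box in 5.15%, 5.34% and 8.36%. Among genes with a mean at or above the median gene the GC box shares were 78.9%, 70.3% and 73.2%, and the CCAAT shares 43.5%, 32.8% and 37.8%. The cAMP response element TGACGTCA occurred in 4.24% of promoters of genes called higher, 2.07% of those called lower and 2.69% of all, and the ETS site CCGGAAG in 19.2%, 15.4% and 15.5%. In genes at or above the median gene these shares were 4.75%, 2.23% and 3.57% for the cAMP response element, and 21%, 16% and 20.8% for the ETS site. The AP-1 site TGANTCA occurred in 3.48%, 4.15% and 5.42%, the heat shock element GAANNTTC in 4.62%, 4.27% and 5.23%, and the NRF1 site in 2.2%, 2.58% and 1.99%. REEP6 and EFCAB12, printed above, carry both a GC box and a CCAAT box, and DHRS2 carries neither.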

How the data were processed

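RNA of each sample had been labelled with biotin and measured on 1 Affymetrix Human Gene 2.0 ST array. The deposited table holds the authors' values for 53617 clusters and 12 arrays, read as log2 signal because they run from 1.391 to 14.1; no label gives the log base, and every fold change assumes base 2. The submitters' processing notes name MAS5 and affy. Their role, the background correction, summarisation, normalization and genome build were not given in the sources used here. The number of arrays limits the precision, and signal over background is unknown.

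A probe table named 16098 clusters with 1 symbol each (37519 had none and were left out), which gave 14884 genes, 779 with several clusters. Values were tested as deposited in R 4.3.3 with limma 3.58.1 (1 coefficient per group, all 12 arrays, 8 residual and 3.457 prior degrees of freedom), two-sided, adjusted by Benjamini-Hochberg over all genes, and the code was tested on simulated data. Replicate numbers were not used as pairs: deviations of same-numbered combination and JQ1 arrays correlated at -0.509, -0.048 and -0.05, and in none of the 6 pairs of groups (from -0.693 to 0.236) were all 3 over 0.1. Members, lists and the rule for named genes were chosen with earlier results of these data known. The rule takes the 12 largest coding rises and falls without overlap and with the higher group's mean at or above 7.238, 3 and 3 of other types, 6 and 6 by the difference, a list of single genes, and from each gene list up to 4 called members and 1 not called. Gene lists are described, not tested. Alternatives were other scalings, a filter on dim genes, a replicate block, an intensity trend, other clusters and arrays left out.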

Additional observations from a re-analysis of the deposited data

Results flagged for a closer look

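The test of the difference between panobinostat's change with JQ1 and without it passed for 113 genes, and the named ones among them are given here because the difference itself was tested; each value is a log2 difference with limma's SE, from n = 3 arrays in each of the 4 groups. Negative differences were found for PAG1 (-1.43 ± 0.19), FLRT3 (-1.27 ± 0.19), HSPA2 (-1.17 ± 0.18), SESN3 (-1.15 ± 0.11), AHR (-1.11 ± 0.12) and RGS16 (-1.02 ± 0.16). In PAG1 and SESN3 the change with JQ1 was not called, FLRT3 fell with JQ1 and rose without it, and HSPA2, AHR and RGS16 rose in both. Positive differences were found for RD3 (1.08 ± 0.16), MAP2K6 (1.04 ± 0.11), NHSL2 (1.00 ± 0.12), PRDM10 (0.98 ± 0.13), POPDC2 (0.97 ± 0.12) and TBX22 (0.92 ± 0.17). MAP2K6 was called only with JQ1 and RD3 and TBX22 only without it, while NHSL2, PRDM10 and POPDC2 fell in both. 0 of the 12 passed without the first combination and first JQ1 arrays together, the setting that left 0 genes called in all by limma and 1897 at an unadjusted p under 0.05.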

How the results depend on the processing

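The 3816 genes called in the combination against JQ1 stayed within 1.5 times that count in every alternative run, between 2568 without the first combination and first JQ1 arrays together and 4192 with an intensity trend, and leaving out 1 array at a time gave 3003 to 3926. The 113 genes whose change differed with and without JQ1 did not: they were 41 with each array centred on its median, 15 centred on the miRNA genes, 313 with quantile normalization, 259 without genes under the 40th percentile of signal, 322 with an intensity trend, 28 to 86 with 1 array left out and 0 by limma without the first combination and first JQ1 arrays or without the first array of all 4 groups (1897 and 2025 at an unadjusted p under 0.05); the cause was not tested. With the replicate block the pairing by number gave 3251 and 48 genes; the labels do not say that a number marks a shared culture or day, and same-numbered arrays correlated at 0.236, 0.083 and 0.191 between combination and panobinostat and at 0.201, 0.179 and 0.096 between JQ1 and vehicle. The miRNA centring and the removal of first arrays were chosen after seeing the data, and the centring on olfactory receptor genes was not run because no cluster named for that family was at hand. Of 196 named genes, 154 were called, 131 of them under each of 23 other settings that held them (the filter on dim genes removed 10) and 23 not under at least 1 (among them BCL2L1, BIRC5, FLRT3, HDAC1, PALB2, RGS16, SYT4 and TWIST1); no called change turned its sign.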

Other observations

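Among the 1072 miRNA genes 27 were called higher and 52 lower in the combination against JQ1, and 82 higher and 24 lower with panobinostat against vehicle. Over all genes the shares were 11.7% and 13.9% in the first comparison and 14.5% and 14.8% in the second. In the first, 7.37% of miRNA genes were called in either direction, against 25.6% of all genes. The difference passed the test for 1 miRNA gene with a positive value and 2 with negative ones, against 0.309% and 0.45% of all genes. The median signal of the miRNA genes was 5.4, 5.29 and 5.28 in the combination arrays, against 5.24, 5.29 and 5.35 in the JQ1 arrays, and 5.41, 5.36 and 5.29 in the panobinostat arrays, against 5.14, 5.27 and 5.28 in the vehicle arrays. The part of this array-wide level in the miRNA counts was not tested.

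The last of the 9 motifs searched, the E-box CACGTG, which MYC proteins bind, occurred in 11.9% of promoters of genes called lower, 9.09% of those called higher and 9.08% of all. Among genes with a mean at or above the median gene the shares were 12.1%, 9.49% and 10.6%.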
